A study of Mus musculus with 8 samples.

Results

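The genes described here are the nuclear genes for cytochrome c and for subunits of respiratory complexes II, III and IV and of ATP synthase (complex V). They were taken as the protein-coding genes whose symbols follow the names Sdha to Sdhd, Uqcr, Cyc1, Cycs, Cox4 to Cox8 and Atp5. The rule found 49 of the 30153 genes in the table, with 4 in complex II, 9 in complex III, 1 for cytochrome c, 18 in complex IV and 17 in complex V. Heart RNA was sequenced from aged mice of strain C57/BL6 that carried haplotype II of the human gene for the angiotensin II type 1 receptor, AT1R. Of the 8 libraries, 4 were from aged haplotype II mice on a western diet, which supplies much fat and sugar, and 4 from aged haplotype II mice without it, called control here. The human haplotype was thus present in both groups, and no mouse without it was compared. Sex, exact age, duration of the diet and batch are absent from the labels. Nothing states that every library came from its own animal, so the p-values reflect variation among these 8 samples, which may be technical.

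The inner mitochondrial membrane holds the complexes that pass electrons from nutrients to oxygen and use the resulting proton gradient to make ATP. Complex II (succinate dehydrogenase) feeds electrons from succinate into ubiquinone, complex III moves them to cytochrome c, complex IV (cytochrome c oxidase) hands them to oxygen, and complex V makes ATP. Complexes III, IV and V mix nuclear subunits with a few encoded by mitochondrial DNA, while complex II is wholly nuclear. Several nuclear subunits of complex IV exist as a general form and a form of heart and skeletal muscle, encoded by separate genes.

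Levels are given in TPM, a relative transcript abundance corrected for transcript length, so genes can be compared with each other within a library. TPM keeps no read depth, and the depth of the libraries is unknown. The ventricular muscle gene Myl2 was listed at 13530 to 18530 TPM in western diet libraries and 16690 to 19810 TPM in controls. The summed level of 10 ventricular markers was 53980, 52340, 47480 and 43640 TPM in western diet libraries 1 to 4, against 53640, 54830, 51230 and 56210 TPM in control libraries 1 to 4. Of 8 skeletal muscle markers 3 were tested, and the myosin genes Myh1, Myh2 and Myh4 lay below 1 TPM in all 8 libraries. Acta1, which heart also expresses, was at 137.5 to 448 TPM with western diet and 70.3 to 125.9 TPM in controls (limma adjusted p = 0.0744), and Pvalb was at 0 to 0.788 and 1.04 to 1.13 TPM in the same order (limma adjusted p = 0.0934). Of 8 fat cell markers 2 were tested, Fabp4 at 473 to 616 TPM with western diet and 471 to 514 TPM in controls, and Cidea at 25.9 to 32.4 and 23.2 to 31.5 TPM in the same order. Both were highest in western diet library 1. Among the others, Ucp1 reached 10.9 TPM and Adipoq 5.61 TPM in control library 3, with at most 1.68 TPM for Ucp1 and 0.398 TPM for Adipoq in the other 7. The atrial gene Myl7 was at 335 TPM in western diet library 2, against 184 and 1403 TPM in control libraries 1 and 3, and at most 2.87 TPM elsewhere. Of the marker lists, 3 genes passed the test (limma). The kidney gene Kap was at 9.58, 7.15, 13.4 and 72.1 TPM in western diet libraries and at most 0.685 TPM in controls (limma adjusted p = 0.0169), endothelial Cldn5 was higher with western diet (limma adjusted p = 0.00527) and smooth muscle Tagln lower (limma adjusted p = 0.0169). Neither list moved as a whole. Of 6 endothelial markers 4 had higher and 2 lower means with western diet, and of 6 smooth muscle markers 4 had lower and 2 higher means. Acta2 of the smooth muscle list was at 47.9 to 117.3 TPM with western diet and 26.3 to 39.1 TPM in controls (limma adjusted p = 0.0630). The part of these markers in the results on the subunit genes was not tested. The Y-linked gene Eif2s3y was at 0, 0, 0.0231 and 22.3 TPM in western diet libraries 1 to 4 and at 21.1 to 29.0 TPM in controls. Ddx3y, Uty and Kdm5d were likewise higher in western diet library 4 and the controls than in western diet libraries 1 to 3. Apparent sex thus differs between the groups along with diet. In every comparison below, a difference by diet and a difference by sex cannot be told apart. Red cell transcripts summed to 14260, 5283, 1975 and 2500 TPM in western diet libraries and 2378 to 4455 TPM in controls.

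The subunit genes were among the most abundant nuclear transcripts of these hearts. Of the 49 genes, 47 reached 1 TPM in at least 4 libraries and were tested. The testis-type genes Cox7b2, at 0 to 0.6 TPM, and Cox8c, listed at 0 in every library, were not. A mean of 1000 TPM or more over the 8 libraries was reached by 20 genes, 2 of complex III, 9 of complex IV and 9 of complex V. The highest was Atp5b, the catalytic beta subunit of ATP synthase, at 3882 TPM and rank 26 among all genes. Cox4i1, the general form of the Cox4 subunit, followed at 2419 TPM and rank 31. Complex II had the narrowest range of means, 299 TPM for Sdhc to 761 TPM for Sdhb. In complex III the means ran over 379 TPM for Uqcrc1 to 1546 TPM for Uqcrh. Only 5 tested genes had means under 100 TPM, and they were Cox4i2, Cox6b2, Atp5g2, Atp5s and Cycs.

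**Figure D1:**
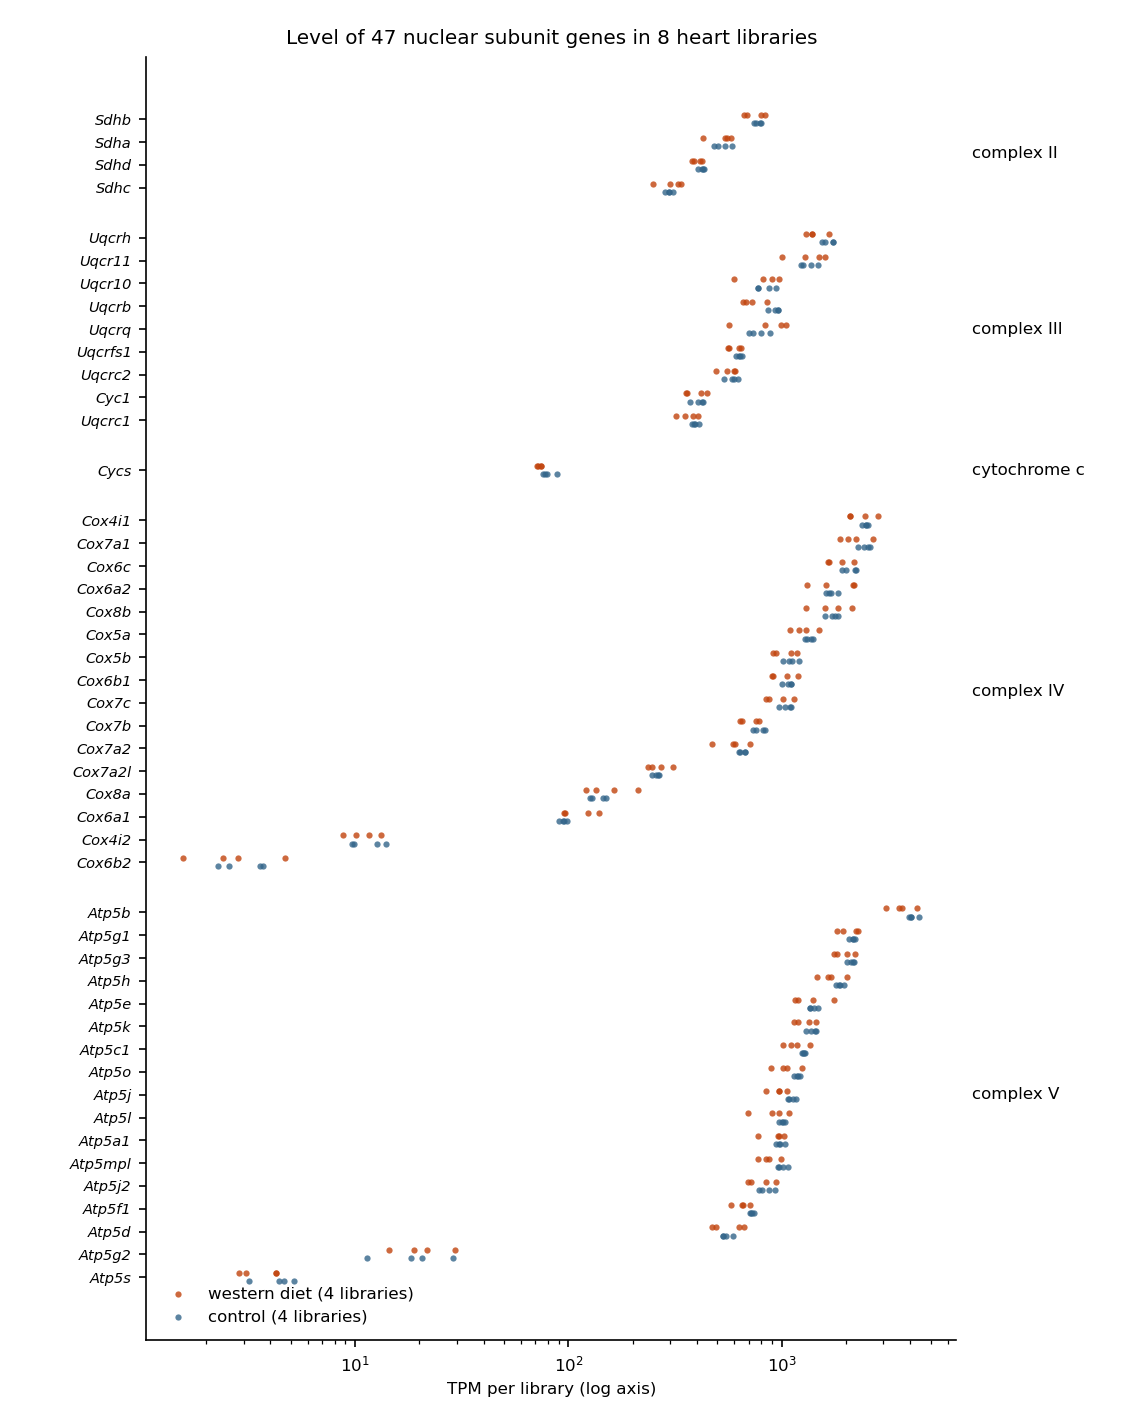
TPM of the 47 tested subunit genes on a log axis, grouped by complex and ordered by mean, with 1 point per library (western diet above, control under it). Western diet and control points of most genes overlap, and 42 of 47 genes have means of at least 100 TPM.

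Summed over the 49 genes, the level was 52470, 47390, 40850 and 40320 TPM in western diet libraries, against 49670, 49790, 46250 and 47840 TPM in controls. The means were 45260 ± 5785 TPM with western diet and 48390 ± 1679 TPM in controls (SD, n = 4 each). Western diet library 1 had the highest sum of the 8 and libraries 3 and 4 the lowest, so the groups overlapped. As a share of all TPM the genes took 4.78 ± 0.640% with western diet and 5.10 ± 0.176% in controls.

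None of the 47 genes passed the test between diets (limma, Benjamini-Hochberg adjusted p under 0.05 over all 10969 genes tested). Of all genes tested 0.301% were called in this comparison, 0.0729% lower and 0.228% higher. An unadjusted limma p under 0.05 was found for 3 of the 47 genes, Uqcrb, Atp5j and Atp5mpl, all with lower means with western diet. Of all genes tested 11.7% had such a p, 2.51% with a lower and 9.2% with a higher mean. The count of 3 became 15 without western diet library 1 and 0 without the 3 libraries with atrial transcripts. That last fit held only western diet libraries 1, 3 and 4 and control libraries 2 and 4. In it the log2 fold change of Uqcrb was -0.35 with an SE of 0.18, beside -0.35 and 0.099 in the reported fit. The count of 0 therefore does not show that the differences vanished. The share over all genes tested is not given for those fits. Since hearts were measured in bulk, fewer cells of a type and less RNA per cell cannot be told apart in these values.

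The direction of the small differences was mostly the same. A lower log2 mean with western diet was seen for 39 of the 47 genes, against 33.6% of all genes tested. Among genes with a mean of at least 100 TPM 51.6% were lower, beside 35 of the 42 subunit genes at that level. The median log2 fold change of TPM + 1 was -0.087 over the 47 genes, 0.061 over all genes tested and -0.0028 over genes of at least 100 TPM. The direction was not particular to the subunit genes. Of the 10 ventricular markers, 8 fell and 2 rose with western diet, and the median of that list was -0.098. Whether the subunit genes moved apart from these markers was not tested. With median-of-ratios scaling 43 of the 47 genes were lower and their median was -0.16. By complex the median log2 fold change was -0.037 in complex II, -0.060 in complex III, -0.085 in complex IV and -0.13 in complex V. Single libraries moved it, since the median over the 47 genes was -0.17 without western diet library 1 and -0.042 without western diet library 4. Genes with every western diet library below every control numbered 4 of 47 (Uqcrb, Atp5j, Atp5f1 and Cycs), against 1.75% of all genes tested and 3.1% of those of at least 100 TPM. No gene lay wholly above the controls, against 4.85% of all genes tested.

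**Figure D2:**
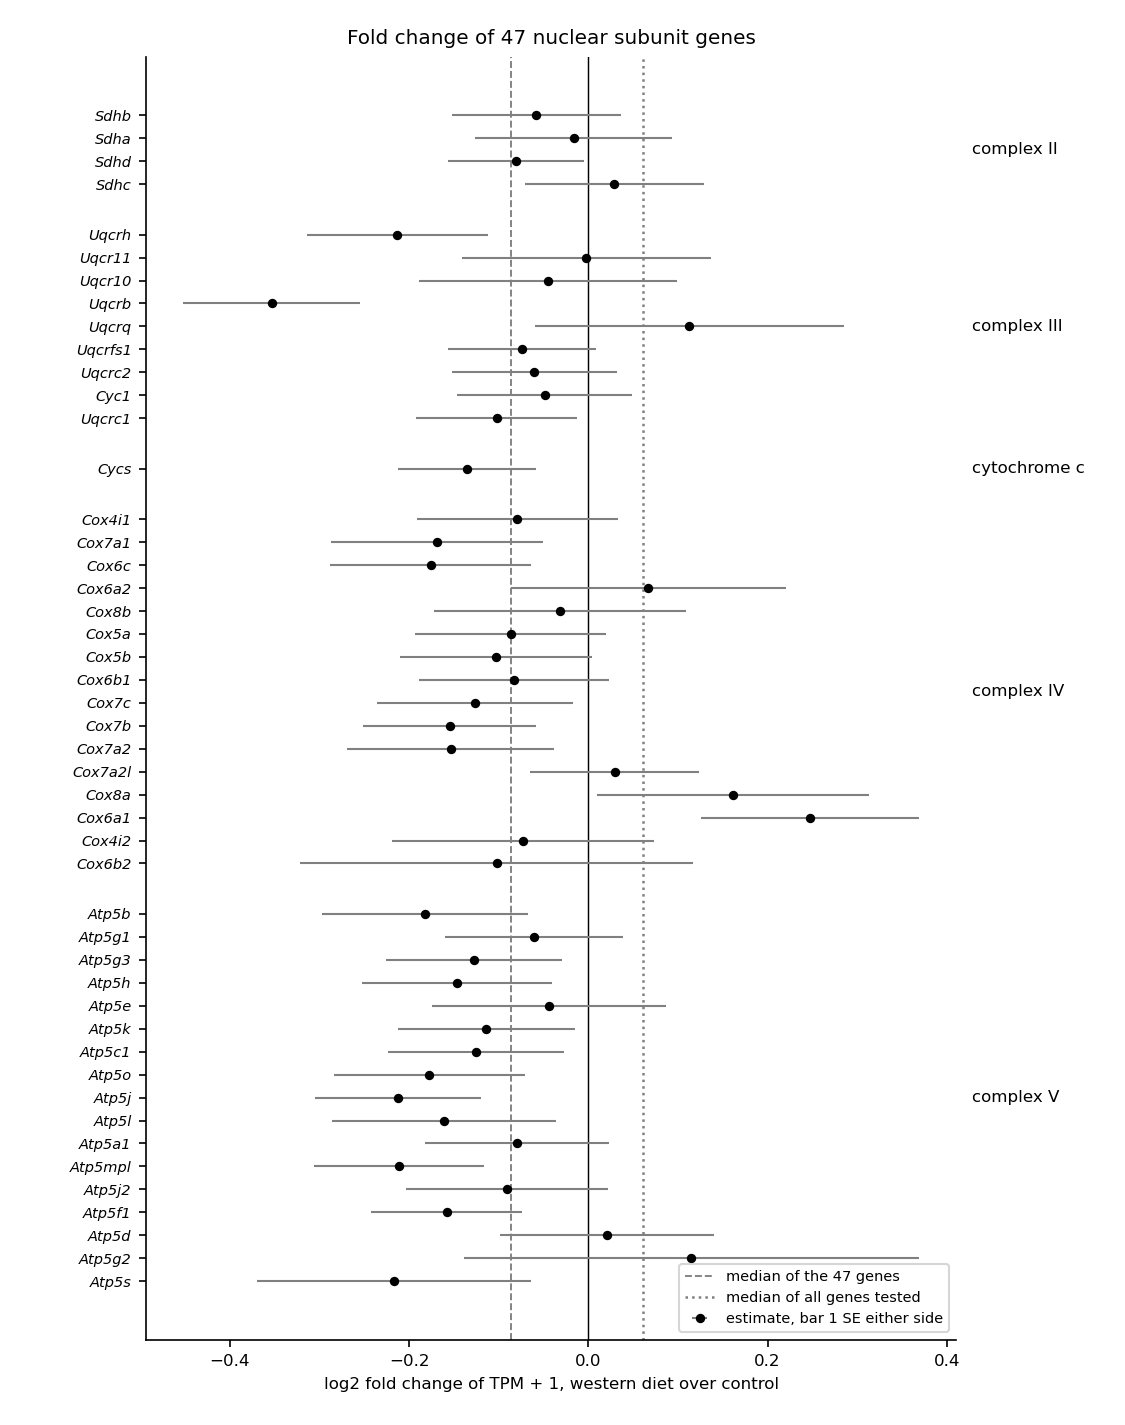
Log2 fold change of TPM + 1, western diet over control, for the 47 tested genes by complex, with bars of 1 SE on either side. The dashed line marks the median of the 47 genes (-0.087), the dotted line that of all genes tested (0.061), and the estimates run over -0.35 for Uqcrb to 0.25 for Cox6a1.

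In complex II, Sdha carries the flavin that oxidises succinate and Sdhb the iron-sulfur clusters, while Sdhc and Sdhd anchor the enzyme in the membrane. Means differed little for all of them, and no adjusted limma p was under 0.729. Sdha was at 576, 541, 553 and 428 TPM in western diet libraries, against 503, 483, 541 and 588 TPM in controls. Western diet library 4 was the lowest of the 8 and the other 3 lay inside the control range. Sdhb was at 834, 798, 686 and 669 TPM with western diet and 799, 795, 743 and 761 TPM in controls. Sdhc averaged 303 ± 38.9 TPM with western diet and 296 ± 10.8 TPM in controls (SD, n = 4 each). Sdhd had the most even values of the 4 genes, with 413, 421, 387 and 380 TPM with western diet and 424, 406, 428 and 434 TPM in controls. Its log2 fold change was -0.081 with an SE of 0.076 (limma adjusted p = 0.729).

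In complex III, the difference furthest from 0 among the 47 genes was that of Uqcrb, a small subunit beside the ubiquinone-binding site. Uqcrb was at 729, 678, 854 and 659 TPM in western diet libraries, against 959, 965, 862 and 931 TPM in controls. The groups did not overlap, but western diet library 3 lay just under the lowest control. Means were 730.1 ± 87.6 TPM with western diet and 929 ± 47.0 TPM in controls (SD, n = 4 each), a log2 fold change of -0.35 with an SE of 0.099. The unadjusted limma p of 0.00434 became 0.186 after adjustment. Without western diet library 3, the log2 fold change of Uqcrb was -0.43 and its limma adjusted p 0.0678.

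Uqcrh, the hinge protein between cytochromes c1 and c, had the second smallest p of complex III. It was at 1661, 1389, 1391 and 1297 TPM with western diet, against 1748, 1743, 1600 and 1543 TPM in controls. Western diet library 1 lay within the control range and the other 3 below it, with a limma adjusted p of 0.443. Uqcrc1 and Uqcrc2 encode the large core proteins. Uqcrc1 averaged 366 ± 37.3 TPM with western diet and 392 ± 12.4 TPM in controls, and Uqcrc2 averaged 562 ± 49.4 and 585 ± 36.2 TPM in the same order (SD, n = 4 each). Cyc1, the haem-bearing cytochrome c1, was at 417, 449, 360 and 356 TPM with western diet and 426, 424, 373 and 407 TPM in controls. Uqcrfs1, the Rieske iron-sulfur protein, averaged 601 ± 45.2 TPM with western diet and 632 ± 15.6 TPM in controls.

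The small subunits Uqcrq, Uqcr10 and Uqcr11 had the widest spread of complex III. Uqcrq, which sits by cytochrome b, was at 1053, 994, 569 and 837 TPM with western diet, against 885, 796, 706 and 733 TPM in controls. Western diet libraries 1 and 2 were the highest of the 8 and library 3 the lowest, so the mean difference (log2 fold change 0.11, SE 0.17) was smaller than the spread. Uqcr11 was at 1594, 1497, 1008 and 1293 TPM with western diet and 1474, 1369, 1236 and 1255 TPM in controls. Uqcr10 was at 976, 901, 600 and 816 TPM with western diet and 941, 870, 772 and 771 TPM in controls. In all 3 genes western diet library 3 was the lowest of the 8.

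Cytochrome c, the small electron carrier between complexes III and IV that also triggers the apoptosome when released, is encoded by Cycs in heart. Its row held only 74.5, 72.0, 71.2 and 74.1 TPM in western diet libraries, against 76.3, 88.1, 77.9 and 79.0 TPM in controls. The groups did not overlap, with a log2 fold change of -0.14, an SE of 0.077 and a limma adjusted p of 0.531. The level of this row is low beside its neighbours in the pathway, and transcript sequences show that other rows share its coding sequence. Gm10053 (chromosome 19, annotated as protein-coding) and Gm10108 (chromosome 5, a pseudogene) were found as near-identical copies. Aligned over the 315 coding bases of Cycs, Gm10053 had 0 mismatches and Gm10108 had 2, G4A and G44A, with positions counted from 1 at the first coding base and the base of Cycs first. The first 60 coding bases, from GENCODE vM21 transcripts (GRCm38), are printed because reads from this stretch could come from any of the 3 genes except at those positions, which are in capitals in Cycs and Gm10108.
Cycs: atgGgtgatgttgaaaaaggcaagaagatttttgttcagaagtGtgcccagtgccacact
Gm10053: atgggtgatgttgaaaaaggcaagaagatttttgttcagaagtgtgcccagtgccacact
Gm10108: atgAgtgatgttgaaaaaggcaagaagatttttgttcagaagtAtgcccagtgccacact
Gm10053 averaged 666 ± 27.3 TPM with western diet and 718 ± 20.1 TPM in controls, and Gm10108 averaged 534 ± 89.5 and 541 ± 47.9 TPM in the same order (SD, n = 4 each). Cycs held 5.86% of the summed level of the 3 rows. The sum was 1336, 1331, 1303 and 1123 TPM with western diet and 1382, 1414, 1298 and 1266 TPM in controls, and here the groups overlapped. How the reads were divided among these rows cannot be checked from TPM, so the level of Cycs and its difference are uncertain.

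Other subunit genes shared sequence in the same way. A search for transcripts with at least 90% identity over at least 50% of the copy found 87 copies, of which 64 had a row and 6 a mean of at least 50 TPM. Atp5g2, a gene for the c subunit of the ATP synthase rotor, averaged 21.0 ± 6.24 TPM with western diet and 19.7 ± 7.13 TPM in controls. Its copy Gm10175 on chromosome 7, without a mismatch over the 438 coding bases, averaged 398 ± 65.4 TPM with western diet and 395 ± 11.3 TPM in controls. Atp5g2 held 4.89% of their sum. Atp5l, the g subunit of ATP synthase, and its copy Gm10221 on chromosome 5 were near equal, and Atp5l held 51.9% of a sum (with a low pseudogene, Atp5l2-ps) of 1784 ± 297 TPM with western diet and 1918 ± 57.7 TPM in controls. Cox7c, a small complex IV subunit, held 57.7% of a sum with Gm12338 on chromosome 11 of 1650 ± 254 TPM with western diet and 1855 ± 123 TPM in controls. Uqcr10 held 93.2% of its sum with Gm6293 on chromosome 19, which had 10 mismatches over 192 coding bases. With copies summed, none of the 47 genes passed the test.

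**Figure D3:**
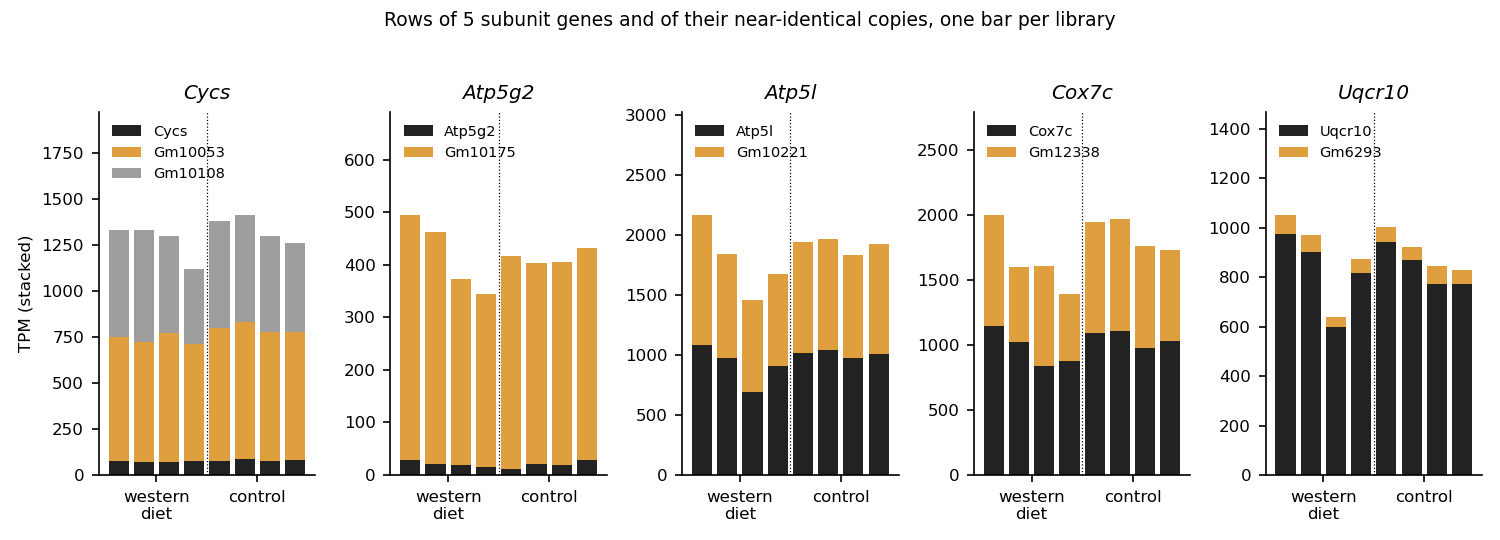
TPM of 5 subunit genes stacked with their near-identical copies of at least 50 TPM, 1 bar per library (western diet left of the dotted line, control right of it). Cycs and Atp5g2 hold 5.86% and 4.89% of their stacks, Atp5l and Cox7c 51.9% and 57.7%, and Uqcr10 93.2%.

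In complex IV, 12 of the 16 tested genes had a lower and 4 a higher log2 mean with western diet. The catalytic core of this complex is encoded by mitochondrial DNA, and the nuclear subunits surround it. Cox4i1 was at 2816, 2463, 2087 and 2084 TPM with western diet, against 2546, 2476, 2390 and 2494 TPM in controls. Its western diet values spanned the control range on both sides, while the 4 controls differed little. Cox4i2, the alternative form known from lung and low oxygen, was at 13.2, 11.6, 8.81 and 10.1 TPM with western diet and 13.9, 9.68, 12.7 and 9.92 TPM in controls. It made up at most 0.481% of the Cox4 transcripts with western diet and 0.544% in controls.

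Cox7b and Cox6c had, after Cox6a1, the smallest p of complex IV. Cox7b, an X-linked gene, was at 757, 786, 638 and 653 TPM with western diet, against 822, 834, 754 and 738 TPM in controls (limma adjusted p = 0.575). Cox6c was at 2180, 1923, 1651 and 1667 TPM with western diet, against 2206, 2223, 1922 and 1996 TPM in controls (limma adjusted p = 0.586). In both genes western diet libraries 3 and 4 lay below every control and libraries 1 and 2 within the control range. Cox5a and Cox5b averaged 1272 ± 174 and 1034 ± 130.0 TPM with western diet, against 1343 ± 51.9 and 1106 ± 81.8 TPM in controls (SD, n = 4 each). Cox6b1, which faces cytochrome c, made up at least 99.6% of the Cox6b transcripts in every library and averaged 1018 ± 140.2 TPM with western diet and 1071 ± 50.5 TPM in controls. Its testis-type partner Cox6b2 averaged 2.87 ± 1.32 TPM with western diet and 3.03 ± 0.717 TPM in controls.

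Muscle forms made up most of the Cox6a, Cox7a and Cox8 transcripts in both groups. Cox6a2, the form of heart and skeletal muscle, made up 93.3 to 94.7% of Cox6a transcripts with western diet and 94.3 to 95.1% in controls. Cox8b, the muscle form of rodents, made up 89.7 to 92.9% of Cox8 transcripts with western diet and 91.7 to 93.3% in controls. The balance was less one-sided in the Cox7a family, where the muscle form Cox7a1 made up 69.3 to 74.1% with western diet and 71.6 to 73.9% in controls. Cox7a2, the general form, made up 17.1 to 21.9% with western diet and 19.0 to 20.1% in controls. Cox7a2l, another member of the family, made up 8.34 to 8.87% with western diet and 6.98 to 8.31% in controls. That share was singled out after its values were seen, because its groups did not overlap, and the level of Cox7a2l itself did overlap (236 to 308 TPM with western diet, 246 to 266 TPM in controls).

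Cox6a1 and Cox8a, the general forms of their families, had higher means with western diet, and Cox7a2 a lower one, none past the threshold. Cox6a1 was at 123, 140, 94.9 and 96.4 TPM with western diet, against 94.9, 94.1, 98.0 and 90.03 TPM in controls. Western diet libraries 1 and 2 were the highest of the 8, and libraries 3 and 4 lay within the control range. The log2 fold change was 0.25 with an SE of 0.12 (limma adjusted p = 0.463), the highest of the 47 genes, and it was 0.14 without western diet library 2. Cox8a was at 163, 211, 121 and 135 TPM with western diet, against 150, 127, 145 and 130 TPM in controls (log2 fold change 0.16, SE 0.15, limma adjusted p = 0.729). The log2 fold change was 0.011 without western diet library 2, which held the highest value. Western diet library 2 was one of the libraries with atrial transcripts, as were control libraries 1 and 3. Without the libraries with atrial transcripts, the log2 fold change was 0.18 for Cox6a1 and 0.11 for Cox8a. The part of atrial transcripts in these values was not tested.

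The muscle partners varied with the same libraries. Cox6a2 was at 2179, 2158, 1322 and 1615 TPM with western diet, against 1828, 1662, 1606 and 1708 TPM in controls. Cox8b was at 2143, 1839, 1300 and 1603 TPM with western diet, against 1841, 1773, 1600 and 1718 TPM in controls. Western diet library 1 was the highest and library 3 the lowest of the 8 in both. Cox7a1 was at 2672, 2234, 1871 and 2054 TPM with western diet, against 2543, 2606, 2276 and 2432 TPM in controls. Cox7a2 was at 712, 603, 591 and 473 TPM with western diet, against 675, 675, 640 and 632 TPM in controls. In both Cox7a genes western diet library 1 was the highest and libraries 2, 3 and 4 lay below every control.

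Dividing one isoform by the other within a library removes the scaling of the library. The ratio of Cox6a2 to Cox6a1 was 17.7, 15.4, 13.9 and 16.7 with western diet, against 19.3, 17.7, 16.4 and 19.0 in controls. The log2 ratio was 0.18 lower with western diet, with an exact permutation p of 0.143 (two-sided, 70 assignments, 0.457 adjusted over the 4 ratios tested). The ratio of Cox8b to Cox8a was 13.1, 8.71, 10.8 and 11.9 with western diet, against 12.3, 13.99, 11.0 and 13.2 in controls. Its log2 value was 0.19 lower, with an exact permutation p of 0.229 (0.457 adjusted), and 0.082 lower without western diet library 2. In both ratios 2 of the 4 western diet libraries lay below every control. The ratio of Cox7a1 to Cox7a2 was 3.75, 3.70, 3.16 and 4.34 with western diet, against 3.77, 3.86, 3.56 and 3.85 in controls (exact permutation p = 0.8286). Cox4i2 over Cox4i1 averaged 0.00462 ± 0.000271 with western diet and 0.00467 ± 0.000839 in controls (exact permutation p = 1.0). The smallest two-sided p this design can give is 0.0286.

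**Figure D4:**
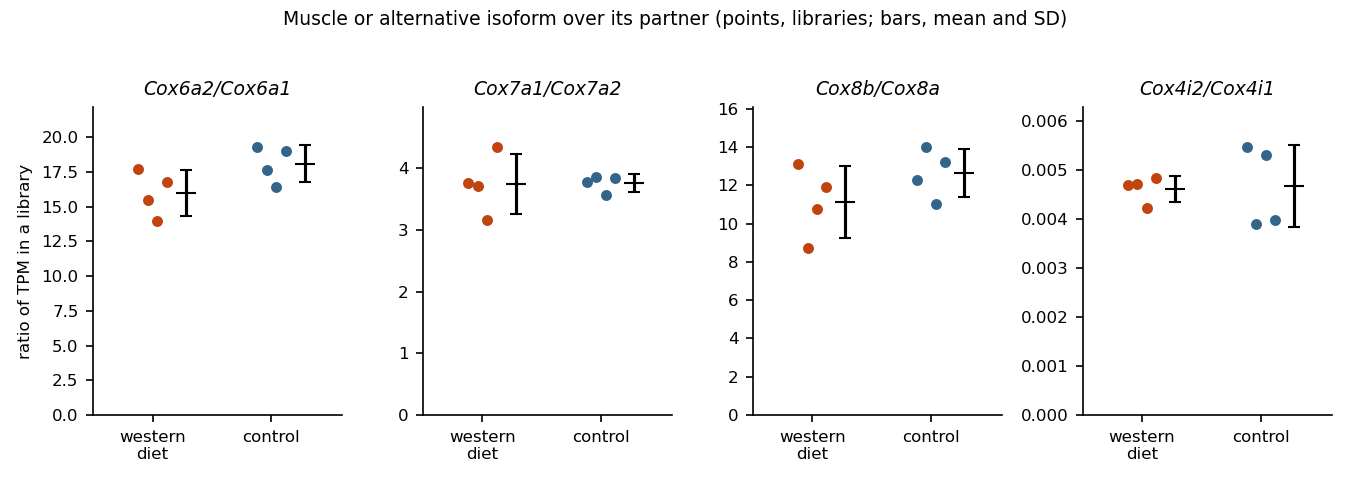
Ratio of the TPM of paired complex IV isoforms in each library (western diet left, control right), with the mean and SD beside the points. Means are 15.96 and 18.1 for Cox6a2 over Cox6a1, 3.74 and 3.76 for Cox7a1 over Cox7a2, 11.1 and 12.6 for Cox8b over Cox8a, and about 0.005 for Cox4i2 over Cox4i1 in both groups.

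Promoters of the subunit genes were read for motifs of known regulators. RefSeq sequence (GRCm38.p6) from 250 bases before to 50 bases after the start was at hand for 36 of the 47 tested genes, which do not include Cox6a2, Cox4i1 and Cox4i2, so of the 4 isoform pairs only Cox7a and Cox8 have both partners. Motifs were searched on both strands in that window. The palindromic NRF1 motif was found for 10 of the 36 genes (27.8%), against 7.0% of all 27025 genes with promoter sequence. A gene counted when any of its promoter windows held the motif. That background takes in genes of any expression level, and abundant genes alone were not compared. The GABPA (NRF2) motif CCGGAAG was in 12 (33.3%), against 9.93%. YY1 (AANATGGCG) was in 3 (8.33%) against 2.76%, and the oestrogen-related receptor (TNAAGGTCA) in 2 (5.56%) against 1.43%. The MEF2 motif CTAAAAATA was in none of the 36, against 0.588% of all genes with promoter sequence. NRF1, GABPA, YY1 and the oestrogen-related receptors are known activators of respiratory genes, and MEF2 factors act on muscle genes. A match describes sequence, not binding.

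The 250 bases before the start are shown for Cox6a1, the gene with the highest log2 fold change, and for the general and muscle forms of Cox8. All 3 genes lie on the minus strand, at chr5:115348959-115349208 (Cox6a1), chr19:7217617-7217866 (Cox8a) and chr7:140900447-140900696 (Cox8b). GENCODE vM21 places the first base of Cox6a1 slightly further upstream, so the last bases of its stretch fall within the annotated gene. Sequences run 5′ to 3′ along the gene and capitals mark motif matches.
Cox6a1: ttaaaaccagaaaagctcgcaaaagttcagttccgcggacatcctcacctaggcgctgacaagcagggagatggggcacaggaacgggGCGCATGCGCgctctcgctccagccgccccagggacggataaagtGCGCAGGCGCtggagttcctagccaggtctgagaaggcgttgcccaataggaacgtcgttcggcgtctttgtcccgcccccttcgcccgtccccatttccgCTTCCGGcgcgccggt
Cox8a: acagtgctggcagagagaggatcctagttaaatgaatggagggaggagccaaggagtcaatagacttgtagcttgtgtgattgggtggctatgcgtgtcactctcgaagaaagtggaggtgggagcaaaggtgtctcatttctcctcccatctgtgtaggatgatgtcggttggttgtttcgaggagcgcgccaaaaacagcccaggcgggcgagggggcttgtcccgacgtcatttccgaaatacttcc
Cox8b: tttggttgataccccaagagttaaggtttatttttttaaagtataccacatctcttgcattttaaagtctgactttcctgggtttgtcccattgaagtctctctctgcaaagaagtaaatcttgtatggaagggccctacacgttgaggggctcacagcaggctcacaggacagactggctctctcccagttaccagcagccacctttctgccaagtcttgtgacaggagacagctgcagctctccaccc
Cox6a1 held NRF1 matches at 162 to 153 and at 117 to 108 bases before the start and a GABPA match at 16 to 10 bases before it. Cox8a held a GABPA match that crosses the start, so it is not complete in the printed stretch. Cox8b held none of the 5 motifs in its window, nor did Cox7a1 or Cox7a2.

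In complex V, 15 of 17 genes had a lower log2 mean with western diet, the 2 others being Atp5d and Atp5g2. The catalytic head was led by Atp5b at 4297, 3678, 3550 and 3071 TPM with western diet, against 4030, 4428, 3953 and 4050 TPM in controls. Western diet library 1 lay within the control range and the other 3 below it (log2 fold change -0.18, SE 0.12, limma adjusted p = 0.584). Atp5a1, the alpha subunit of the head, was at 1030, 975, 966 and 772 TPM with western diet, against 969, 945, 980 and 1041 TPM in controls. Atp5c1, Atp5d and Atp5e form the central stalk. They averaged 1166 ± 141, 566 ± 97.4 and 1377 ± 281 TPM with western diet, against 1265 ± 21.5, 552 ± 29.4 and 1400 ± 60.5 TPM in controls (SD, n = 4 each).

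The peripheral stalk, which holds the head still while the rotor turns, held 2 of the 4 genes without overlap. Atp5j, coupling factor F6 of this stalk, was at 1063, 972, 971 and 842 TPM with western diet, against 1125, 1168, 1087 and 1067 TPM in controls. Its highest western diet value lay just under the lowest control (log2 fold change -0.21, SE 0.092, limma adjusted p = 0.407). Atp5f1, the b subunit, was at 707, 657, 652 and 581 TPM with western diet, against 723, 712, 718 and 739 TPM in controls. The controls of Atp5f1 lay close together and western diet library 1 just below them (log2 fold change -0.16, SE 0.084, limma adjusted p = 0.497). Atp5h and Atp5o, the other stalk subunits, averaged 1706 ± 229 and 1053 ± 150.4 TPM with western diet, against 1877 ± 63.2 and 1183 ± 31.5 TPM in controls (SD, n = 4 each). On the opposite strand, Gabpa overlaps Atp5j at 12.8 TPM and Wdr77 overlaps Atp5f1 at 17.5 TPM. Use of strand in the quantification is not given in the sources used here, and both are far below the stalk genes.

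Atp5mpl, a small membrane subunit of complex V, was the third gene with an unadjusted p under 0.05. It was at 989, 846, 868 and 773 TPM with western diet, against 1014, 1069, 963 and 967 TPM in controls. Western diet library 1 lay within the control range and the other 3 below it (log2 fold change -0.21, SE 0.095, limma adjusted p = 0.422). The rotor ring is built from many copies of 1 protein, subunit c, whose identical mature form comes from 3 genes. Atp5g1 made up 50.4 to 52.2% of these transcripts with western diet and 49.3 to 50.8% in controls. Atp5g3 made up 47.3 to 49.0% and 48.9 to 50.1% in the same order. These shares leave out Gm10175, the copy of Atp5g2, which averaged 398 TPM with western diet and 395 TPM in controls. The shares of Atp5g1 and Atp5g3 would be smaller if its reads came from Atp5g2. Atp5g1 was at 2274, 2240, 1948 and 1817 TPM with western diet, against 2202, 2165, 2077 and 2155 TPM in controls. Atp5g3 was at 2211, 2027, 1812 and 1759 TPM with western diet, against 2118, 2153, 2036 and 2188 TPM in controls. The remaining membrane subunits Atp5j2, Atp5k and Atp5l averaged 800.0 to 1283 TPM with western diet, against 847 to 1383 TPM in controls. Atp5s (factor B), the lowest gene of the complex, averaged 3.59 ± 0.745 TPM with western diet and 4.34 ± 0.849 TPM in controls.

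The western diet libraries differed more among themselves than the controls did. The SD of log2 values was larger with western diet in 43 of the 47 genes, against 61.9% of all genes tested and 87.9% of those of at least 100 TPM. The exceptions were Cox4i2, Atp5g2, Atp5s and Cycs, all under 100 TPM. The median SD was 0.19 with western diet and 0.073 in controls over the 47 genes, and 0.17 and 0.14 in the same order over all genes tested. Genes of at least 100 TPM had nearly the same medians as the subunit genes, 0.19 with western diet and 0.075 in controls. Measured from the mean of the 4 controls on the log2 scale, the median of the 47 genes was 0.10, -0.0078, -0.21 and -0.25 in western diet libraries 1 to 4, and lay between -0.051 and 0.042 in controls. Western diet library 1 exceeded every control in 28 genes (59.6%, against 43.1% of all genes tested) and library 2 in 10 (21.3%, against 50.01%). Libraries 3 and 4 did so in none and lay below every control in 40 and 37. In libraries 3 and 4 those are 85.1% and 78.7% of the subunit genes, against 19.7% and 32.7% of all genes tested. These shares were not computed for genes of at least 100 TPM, the level of most subunit genes. Whether they are particular to the subunit genes was thus not tested.

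Other measures moved with the same libraries. The share of TPM taken by mitochondrially encoded genes was 27.3, 34.6, 38.5 and 39.3% in western diet libraries 1 to 4, against 34.6, 34.8, 34.6 and 36.5% in controls. With those genes left out of the scaling, the median of the 47 genes was -0.049, -0.011, -0.14 and -0.16 in western diet libraries, and -0.062 to 0.033 in controls. Genes whose longest transcript is under 600 bases, 185 of all genes tested, had a median of 0.22, 0.078, -0.13 and -0.11 in the western diet libraries. Genes of 4000 bases or more had 0.073, 0.19, 0.11 and -0.056. The 7 subunit genes under 600 bases had 0.22, -0.034, -0.28 and -0.21. The summed ventricular markers were lowest in western diet libraries 4 and 3 too, and western diet library 4 was the only one of its group with Y-linked transcripts. The part of these measures in the spread was not tested. Without the 3 libraries with atrial transcripts, the median log2 fold change was -0.14 and none of the 47 genes passed the test.

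**Figure D5:**
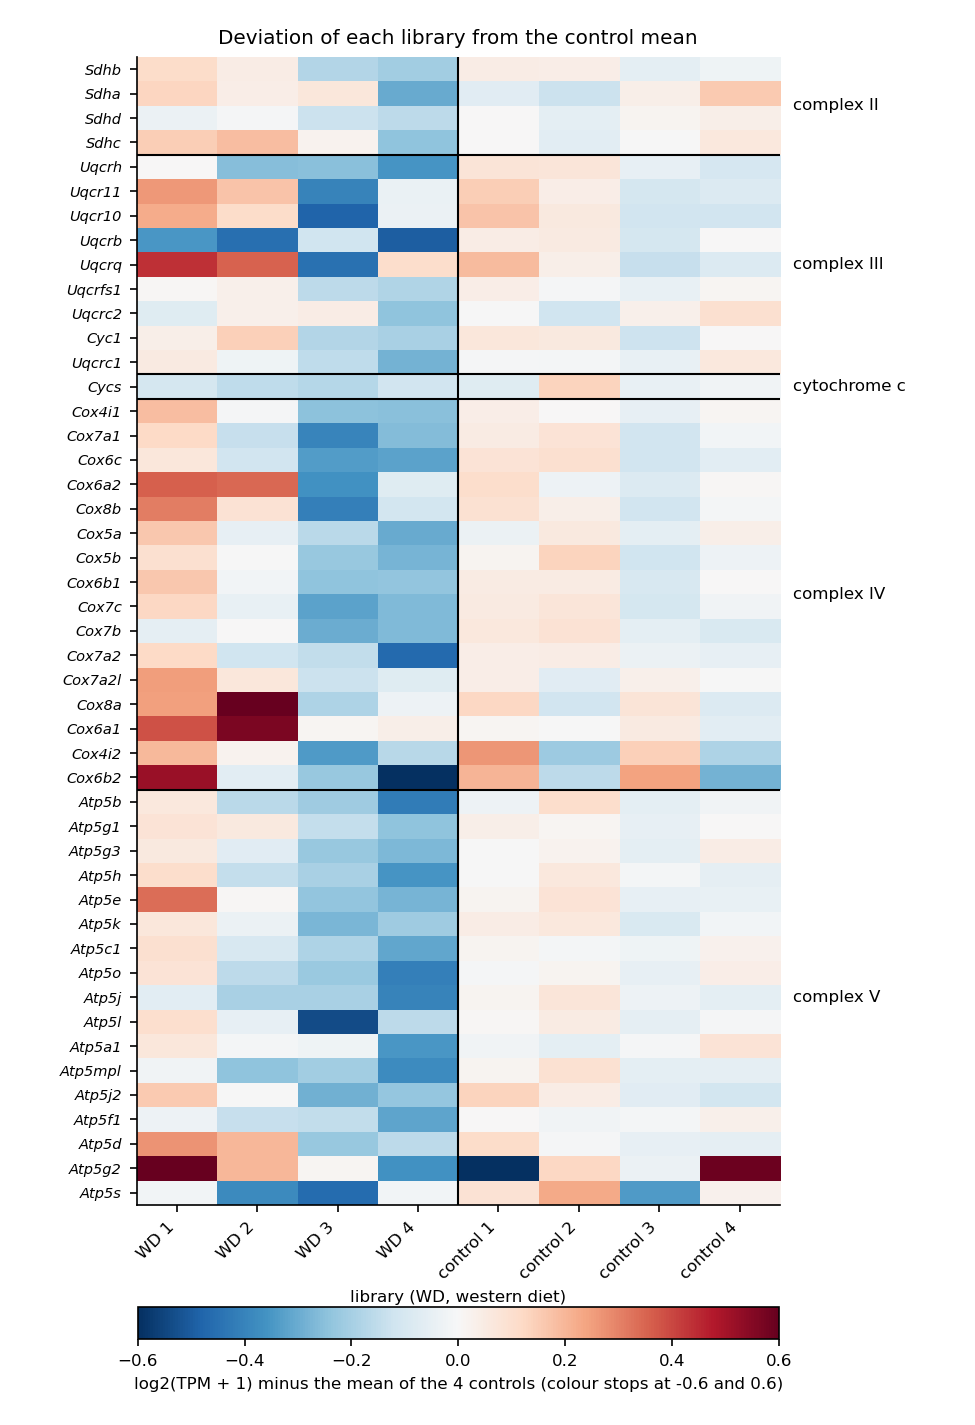
Log2(TPM + 1) of the 47 genes (rows, by complex) in each library (columns, western diet left of control) minus the mean of the 4 controls, with red higher and blue lower. Western diet libraries 3 and 4 are blue in most rows (medians -0.21 and -0.25) and library 1 is mostly red (0.10). The controls, measured from their own mean, are near white in most rows. Atp5g2 is an exception, at -0.68 in control library 1 and 0.59 in control library 4.

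Other genes of the pathway were read from lists of assembly factors, partners and regulators, 66 gene names in all, of which 64 matched a tested gene. None passed the test in either direction, and an unadjusted limma p under 0.05 was found for 1 with a lower and 6 with a higher mean, beside 2.51% and 9.2% of all genes tested. Of all genes tested 33.6% had a lower mean, and their median log2 fold change was 0.061. The assembly factors of complex IV, which insert copper and haem, had 8 lower and 17 higher means (median log2 fold change 0.052), close to these background values. In that list Sco2, a copper chaperone, was at 4.58, 5.60, 2.96 and 4.46 TPM with western diet, against 3.39, 2.10, 1.01 and 1.06 TPM in controls. Western diet library 3 and control library 1 overlapped (log2 fold change 0.96, SE 0.24, limma adjusted p = 0.146). Coa6, another copper factor, averaged 12.2 ± 4.60 TPM with western diet and 7.60 ± 1.01 TPM in controls (limma adjusted p = 0.352).

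Assembly factors of complex V, listed together with its inhibitor Atpif1, had 4 lower means and 1 higher, and Atpif1 was among the lower. Tmem70, which helps build the rotor ring, was at 39.5 to 43.3 TPM with western diet and 44.1 to 45.8 TPM in controls, without overlap (limma adjusted p = 0.565). Atpaf1, a chaperone of the beta subunit, was at 37.7 to 46.4 TPM with western diet and 46.0 to 48.2 TPM in controls (limma adjusted p = 0.662). Complex II factors had 3 lower means and 1 higher, with limma adjusted p of 0.542 for Sdhaf2 and 0.550 for Sdhaf4. Complex III factors had 4 lower and 2 higher, with limma adjusted p of 0.652 for Lyrm7 and 0.702 for Ttc19.

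The 6 mitochondrially encoded partners had 3 lower and 3 higher means, with summed levels of 183500, 228000, 239400 and 250100 TPM with western diet and 220300 to 236500 TPM in controls. By these sums, western diet library 1 lay below and libraries 3 and 4 above every control, on the opposite side from the summed nuclear subunits. TPM values share a common total, so mitochondrial and nuclear sums are not independent. The part of this in the subunit sums was not tested. With mitochondrially encoded genes left out of the scaling, the median log2 fold change of the subunit genes was -0.085, beside -0.087 in the reported fit. Of nuclear TPM alone, the subunit genes took 7.66, 7.68, 6.99 and 6.96% in western diet libraries and 7.45 to 8.04% in controls. On that measure western diet library 1 lay within the control range and libraries 3 and 4 below it. Single partners did not all follow, since mt-Co2, mt-Co3 and mt-Atp8 lay within the control range in western diet library 4. The gene mt-Atp8 had a limma adjusted p of 0.747 and mt-Atp6 of 0.964. Ndufa4, a subunit of complex IV that was long counted to complex I, was listed at 0.624 to 3.35 TPM with western diet and 2.03 to 6.03 TPM in controls (limma adjusted p = 0.381). Copies of Ndufa4 were not searched. Ndufa4l2, its relative, was at 10.4 to 18.3 TPM with western diet and 11.6 to 14.96 TPM in controls (limma adjusted p = 0.706).

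Transcriptional regulators of respiration had 12 higher means of 14 tested, with a median log2 fold change of 0.085 beside 0.061 over all genes tested. Perm1, a muscle regulator of respiratory genes, was at 111.7 to 130.6 TPM with western diet and 93.3 to 106.7 TPM in controls, without overlap (log2 fold change 0.19, limma adjusted p = 0.406). Mef2d, a muscle transcription factor, averaged 35.7 ± 4.47 TPM with western diet and 29.2 ± 4.39 TPM in controls (limma adjusted p = 0.403).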

How the data were processed

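Heart RNA of 8 libraries, 4 per group, was made with a stranded Illumina kit after polyadenylated RNA was pulled down, per the labels' protocols. The authors deposited 1 table of gene-level TPM with Ensembl identifiers. The submitters' processing notes list kallisto, DESeq2 and the build GRCm38 and state neither version nor role. No source used here gives the annotation release or the use of strand. The 8 columns summed to 941318 to 953448 TPM. TPM is relative and keeps no read depth, so no counting interval or detection limit is given, and a few very abundant transcripts can lower the values of all others.

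GENCODE vM21 (GRCm38) named 29811 of 30153 identifiers. Of 50 identifiers that met the rule for members, 49 had a row, and 0 of these shared identical values with another row. The 10969 genes that reached 1 TPM in 4 or more libraries were fitted with limma 3.58.1 (R 4.3.3) as log2(TPM + 1) values (group as the only term, intensity trend, two-sided, Benjamini-Hochberg over all genes tested). Fold changes refer to TPM + 1 and are therefore too small for low genes. For isoform ratios the test was an exact permutation over 70 assignments, two-sided. Copies were found with megablast (BLAST 2.17.0). Promoter sequences are those of RefSeq (GRCm38.p6). Figures used matplotlib 3.10.9 and tables pandas 2.3.3 in Python 3.11.15, and the fit was checked on simulated data.

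The members, gene lists, tests and alternatives were chosen with earlier results of these data known. The genes named were the isoform pairs and families, the Sdh genes, Cycs, Cyc1, and in each complex the 3 of smallest p and the highest and lowest by mean, with other members summarised, plus up to 2 genes of smallest p per list. Uqcrq, Uqcr10, Uqcr11 and the share of Cox7a2l were singled out after their values were seen. Replicate numbers follow accession order and pair nothing. Alternatives were pseudocounts of 0.1 and 0.5, other filters, 3 other scalings, no trend, library weights, a Y-linked term, summed copies, and leaving out the libraries with atrial transcripts or each library in turn.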

Additional observations from a re-analysis of the deposited data

How the results depend on the processing

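No subunit gene passed the threshold under any of the 20 alternatives; the smallest limma adjusted p was 0.0678 (Uqcrb without western diet library 3). The number with an unadjusted limma p under 0.05, 3 as reported, was 15 without western diet library 1 and 0 without the atrial libraries. Without the atrial libraries, only control libraries 2 and 4 remained as controls. The number was 10 with median-of-ratios scaling and 10 with scaling free of mitochondrially encoded genes. The share over all genes tested is given for the reported fit only (11.7%), so these counts have no background beside them. The Y-linked term leaves the comparison to western diet library 4 against the controls, and the median log2 fold change of the subunit genes was then -0.25. Leaving out 1 library gave medians of -0.17 to -0.042. The call count over all genes, 33, was 5 without a filter, 15 with a mean of at least 5 TPM, 61 with quantile normalization, 108 with library weights, 54 with the Y-linked term, 5 without the atrial libraries and 8 to 95 leaving out 1 library; except where fewer or other libraries or genes entered, the cause was not tested. Other scalings moved the all-gene median to between -0.010 and 0.067. The median of the subunit genes was -0.16 with median-of-ratios scaling (43 of 47 lower), -0.061 with quantile normalization (36 lower) and -0.085 without mitochondrially encoded genes (39 lower).

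Of 47 genes, 31 kept the sign of their log2 fold change in every alternative that tested them. Signs changed as follows. With median-of-ratios scaling, Sdhc was at -0.049, Cox6a2 -0.011, Atp5d -0.058 and Cox7a2l -0.049. With quantile normalization, Sdhc was at -0.013, Cox7a2l -0.012, Cox6b1 0.016, Cox8b 0.018, Uqcr11 0.039, Uqcr10 0.0012 and Atp5g1 0.042. With library weights Sdha was at 0.020. With the Y-linked term, Sdhc was at -0.24, Cox6a2 -0.073, Atp5d -0.16, Atp5g2 -0.36, Cox7a2l -0.071 and Cox8a -0.030. Without the atrial libraries, Sdhc was at -0.022, Cox4i2 0.10, Cox6b2 0.11, Cox6a2 -0.014, Atp5d -0.00927 and Atp5g2 -0.27. With copies summed Atp5g2 was at -0.00032. Leaving out 1 library gave -0.13 to 0.010 for Atp5a1, -0.063 to 0.10 for Atp5d, -0.17 to 0.034 for Atp5e, -0.11 to 0.31 for Atp5g2, -0.16 to 0.016 for Cox4i2, -0.030 to 0.21 for Cox6a2, -0.31 to 0.076 for Cox6b2, -0.044 to 0.083 for Cox7a2l, -0.145 to 0.095 for Cox8b, -0.064 to 0.079 for Sdha, -0.023 to 0.12 for Sdhc, -0.13 to 0.099 for Uqcr10 and -0.090 to 0.13 for Uqcr11. The cause was not tested. The log2 ratio of Cox4i2 to Cox4i1, near 0, was 0.21 without the atrial libraries, 0.068 among libraries with Y-linked transcripts, and -0.080 to 0.082 leaving out 1 library. That of Cox7a1 to Cox7a2 was 0.21 among libraries with Y-linked transcripts and -0.090 to 0.062 leaving out 1 library.

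No paired analysis was possible because the replicate numbers only follow accession order. TPM gives no depth, so precision rests on the spread of 4 libraries a group, and rows that share sequence with abundant copies cannot be separated.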
